A study of Rattus norvegicus with 8 samples.

Results

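The data described here are the response to angiotensin II (Ang II) in control cells, measured on 4 of the 8 arrays of the series. The samples were chosen by their titles, which pair the non-targeting control siRNA (siNTC) with either Ang II or saline. The cells were vascular smooth muscle cells of male Sprague-Dawley rats, freed from the thoracic aorta by enzymes and grown for 2 passages in M199 medium with 10% fetal bovine serum. Both siNTC groups carried the control siRNA for 48 h, and then received either 100 nM Ang II or the same volume of phosphate-buffered saline (PBS) for 3 h. There were 2 arrays in each group. The other 4 arrays hold cells given an siRNA against Giver (siGiver), a long non-coding RNA of these cells, with the same PBS and Ang II treatments, 2 arrays each, and enter here as a comparison. The level of Giver was not analysed here, because the annotation assigns it no probe set. The labels give no age and no number of animals. They do not state whether paired arrays are independent cultures, and every p-value below therefore reflects array-to-array scatter that may be technical only.

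Ang II is the effector peptide of the renin-angiotensin system. In vascular smooth muscle it acts mainly through the type 1 receptor, a G-protein coupled receptor whose signal runs through Gq to calcium release, protein kinase C, calcineurin and the MAP kinases, and which also sheds ligands of the EGF receptor and feeds NADPH oxidase. The first transcripts to move are immediate early genes, which need no new protein, followed by genes that brake the signal, cytokines and chemokines, and matrix and growth genes. Receptors of this family are in turn lowered at the membrane and often at the transcript after stimulation.

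Values are log2 expression, 1 per probe set and array, and the brightest probe set stood for each gene. A difference is the mean of the Ang II arrays minus the mean of the PBS arrays on that scale, given with the standard error (SE) of the limma fit and 2 arrays per group. A gene is said to have risen or fallen where its Benjamini-Hochberg adjusted p from limma, over all genes tested, was under 0.05. With 2 arrays against 2, an exact two-sided permutation test of a single gene cannot go below 0.333, so the calls rest on the spread that the fit shares across genes. Levels are compared between arrays for 1 gene and not between genes.

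All 12 smooth muscle markers lay above the filter on dim probe sets (4.81 log2), and so did all 8 fibroblast and adventitial markers, so this check does not separate these cell types. None of the 9 endothelial markers on the array did. Of 15 leukocyte markers, 7 did, the highest being Cd14 at 8.37 and Laptm5 at 6.89. The pan-leukocyte gene Ptprc did not, and at 3.35 it was the lowest of the 15. Array medians lay between 6.15 and 6.19 log2, and the 2 arrays of each group correlated at 0.998 over all probe sets.

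Over 11373 genes, 451 rose with Ang II and 247 fell, which is 3.97% and 2.17% of the genes tested (6.14% in all). The counts of each list below are to be read beside these shares. Most changes were small. Of the risen genes, 201 changed less than 1.25-fold, 159 between 1.25-fold and 1.5-fold, 73 between 1.5-fold and 2-fold, and 18 by 2-fold or more. Of the fallen genes, 153 changed less than 1.25-fold and 89 between 1.25-fold and 1.5-fold, and 5 fell by 1.5-fold or more. Rises of at least 1.5-fold were therefore 0.800% of the genes tested and falls of that size 0.0440%. The median gene differed by 0.01, and the 5th and 95th percentiles were -0.21 and 0.23. For every called gene both Ang II arrays lay on 1 side of both PBS arrays, an arrangement that 28.3% of all genes showed upward and 24.5% downward. The number of called genes depended on single arrays. It was 227 without PBS replicate 1, 358 without PBS replicate 2, 275 without Ang II replicate 1 and 229 without Ang II replicate 2. Of the 40 largest changes, 28 held under every alternative setting in which they were tested, each array left out included, 23 of 25 rises and 5 of 15 falls. The gene lists below were chosen with earlier results of these data known. Of their distinct members tested 17.9% rose, against 3.97% of all genes, so a high count in a list is no independent support.

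**Figure D1:**
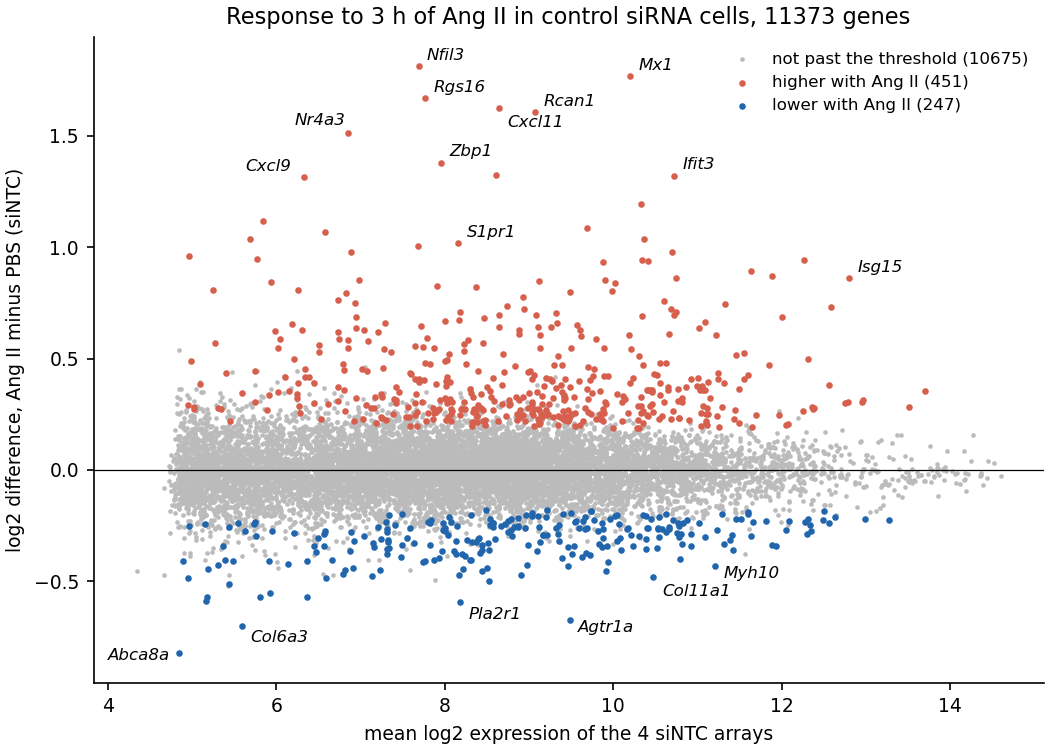
Difference between Ang II and PBS arrays of siNTC cells (vertical axis, log2) against the mean of the 4 siNTC arrays (horizontal axis, log2 expression), 1 point per gene. The 451 risen genes (red) reach 1.81 for Nfil3, and the 247 fallen genes (blue) reach -0.82 for Abca8a, whose levels are among the lowest tested.

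Most vasoactive receptors and ligands did not pass, and the main receptor for Ang II was among those that fell. Of 29 genes tested, 3 rose and 2 fell, against 3.97% and 2.17% of all genes. The median of the list was -0.06, against 0.01 over all genes. Agtr1a, the type 1 receptor in its main rodent form, stood at 9.81 and 9.83 in the PBS arrays and at 9.10 and 9.18 in the Ang II arrays. Both Ang II arrays were below both PBS arrays, by 0.67 ± 0.046 (SE) in the means, a 1.60-fold fall (adjusted p = 0.000247). A dimmer probe set of Agtr1a differed in the same direction, by -0.39 (adjusted p = 0.0103 among all probe sets). Agtr2, the type 2 receptor, lay near the filter in all arrays, between 4.80 and 4.99, and did not pass.

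S1pr1, a receptor for sphingosine-1-phosphate, had 7.70 and 7.60 in PBS and 8.77 and 8.57 with Ang II, a rise of 1.02 ± 0.073 or 2.02-fold (adjusted p = 0.000319). S1pr3, a second receptor of the same lipid, moved the other way, from 9.53 and 9.46 to 9.23 and 9.18, by -0.29 ± 0.048 (adjusted p = 0.016). The groups did not overlap for either receptor, as for every called gene. The vasopressin receptor Avpr1a rose by 0.59 ± 0.071 and the serotonin receptor Htr2a by 0.24 ± 0.055 (adjusted p = 0.049). Other probe sets of Htr2a had 0.16 and 0.05 and did not pass, and its call was lost when probe sets were averaged. The alpha-adrenergic receptor Adra1b had -0.52 ± 0.16 and did not pass, its PBS arrays standing apart at 5.95 and 5.42. The Htr2a call was lost without any 1 siNTC array and the S1pr3 call without PBS replicate 1, Ang II replicate 1 or Ang II replicate 2. The list held 2 risen genes in each case, and 1, 3, 1 and 2 fallen genes without PBS replicate 1, PBS replicate 2, Ang II replicate 1 and Ang II replicate 2.

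A few genes that limit G-protein and calcium signals rose, and most members of these lists did not pass. Of 19 G-protein feedback regulators 4 rose and none fell. Rgs16, which speeds GTP hydrolysis on Gi and Gq, stood at 6.97 and 6.89 in PBS and at 8.56 and 8.64 with Ang II, a rise of 1.67 ± 0.12 (3.18-fold). Rgs2, which acts on Gq, went from 9.81 and 9.91 to 10.78 and 10.83, by 0.94 ± 0.056 (1.92-fold). Both genes were high in both Ang II arrays, as was every risen gene, and held under every alternative. Rgs4 rose by 0.28 ± 0.061 and Rgs3 by 0.24 ± 0.052, and both calls were lost without any 1 of the 4 siNTC arrays, when 2 members remained. Both were also lost when probe sets were averaged. The other probe set had 0.26 for Rgs4 and -0.23 for Rgs3, and neither passed.

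Among 29 calcineurin, calcium and cAMP response genes, Rcan1 had the largest rise. Rcan1, an inhibitor of calcineurin that calcineurin and NFAT induce, had 8.22 and 8.33 in PBS and 9.90 and 9.85 with Ang II, a rise of 1.61 ± 0.063 or 3.04-fold (adjusted p = 5.11e-05). Its relative Rcan2 fell, from 8.08 and 8.07 to 7.70 and 7.63, but the other Rcan2 probe set had -0.10 and did not pass. The phosphodiesterase gene Pde4b rose by 0.30, the CREB coactivator gene Crtc1 fell by 0.31 on the log2 scale, and the median of the list was 0.02. The other Crtc1 probe set had -0.06 and did not pass. When probe sets were averaged the Rcan2 and Crtc1 calls were lost. Without PBS replicate 2, Ang II replicate 1 or Ang II replicate 2, Rcan1 alone remained among the risen genes of this list, and the 2 falls came to 0, 1, 1 and 0 without PBS replicate 1, PBS replicate 2, Ang II replicate 1 and Ang II replicate 2. Of 33 ion channels and calcium pumps, Kcnn4, an intermediate conductance potassium channel of proliferating smooth muscle, rose by 0.41 ± 0.059, Orai3 by 0.33 and Kcnk2 by 0.22. Over all genes tested 3.97% rose. The other Kcnk2 probe set had -0.0007, and the Kcnk2 call was lost when its probe sets were averaged. Without PBS replicate 1 or Ang II replicate 2 none of these 3 channel genes passed, with 2 left without PBS replicate 2 and 1 without Ang II replicate 1.

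Some brakes on the MAP kinase path also rose. Of 16 phosphatases and receptor kinase inhibitors tested, 4 rose and none fell, with a median of 0.14. Spry2, an inhibitor of receptor tyrosine kinase signalling, stood at 8.88 and 8.99 in PBS and at 9.62 and 9.53 with Ang II (0.64 ± 0.067). Dusp5, a nuclear ERK phosphatase, went from 5.74 and 5.60 to 6.24 and 6.34 (0.62 ± 0.067). Dusp6, its cytoplasmic counterpart, rose by 0.38 ± 0.050 and Spry4 by 0.36 ± 0.062. Dusp1, the phosphatase with the widest range of substrates, had 0.14 ± 0.045 and did not pass (adjusted p = 0.113).

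**Figure D2:**
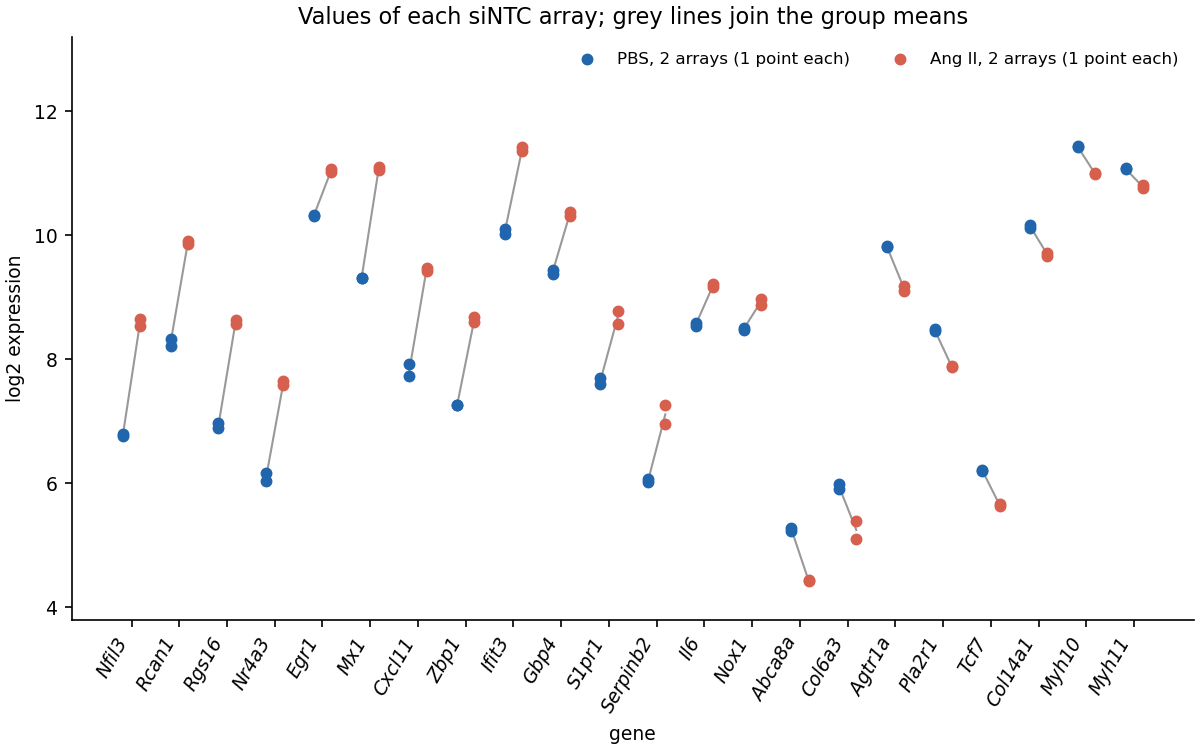
Log2 expression (vertical axis) of 22 genes (horizontal axis) in each of the 4 siNTC arrays, PBS in blue and Ang II in red, with lines joining the group means. The arrays of a group lie close together beside the shift between groups, as for Mx1 (9.32 and 9.31 against 11.11 and 11.06), and widest for Col6a3 and Serpinb2 with Ang II.

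Immediate early transcription factors rose in 22 of 43 cases and fell in none, with a median of 0.25. Nr4a3, an orphan nuclear receptor, had 6.17 and 6.03 in PBS and 7.58 and 7.64 with Ang II, a rise of 1.51 ± 0.096 (2.85-fold, adjusted p = 0.000207). Its other probe sets differed by 2.11 and 0.31, the second of which did not pass (adjusted p = 0.0885). Its paralog Nr4a1 rose 2.01-fold, from 7.09 and 7.27 to 8.20 and 8.18. Both receptors were high in both Ang II arrays, as was every risen gene.

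The zinc finger factors Egr2 and Egr1 rose by 0.82 ± 0.059 and 0.72 ± 0.047, Egr1 from 10.31 and 10.33 to 11.07 and 11.01. In the AP-1 family, Fosl1 rose by 0.64 ± 0.044, Fos by 0.63 ± 0.076, Junb by 0.61 ± 0.077, Atf3 by 0.54 ± 0.058 and Fosb by 0.39 ± 0.059. These 5 genes, like every called gene, did not overlap between the groups, and a second Fos probe set differed by only 0.02. Zfp36, which binds and destabilises cytokine transcripts, rose by 0.67 ± 0.051, Csrnp1 by 0.75 ± 0.11, Id3 by 0.61 ± 0.054 and the shear responsive factor Klf2 by 0.41 ± 0.057. Other probe sets of Klf2 differed by 0.59, 0.03 and 0.01, of which only the first passed among all probe sets. Without PBS replicate 1, PBS replicate 2, Ang II replicate 1 or Ang II replicate 2 the list held 14, 17, 14 and 15 risen genes, and Csrnp1 was among those lost with PBS replicate 1, Ang II replicate 1 or Ang II replicate 2 left out.

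Nfil3, a leucine zipper repressor that binds the D-box of clock output genes, had the largest rise of all genes tested. It stood at 6.80 and 6.77 in PBS and at 8.54 and 8.65 with Ang II, a rise of 1.81 ± 0.065 or 3.52-fold (adjusted p = 4.16e-05). Of 17 circadian clock genes, Nr1d1 (0.41 ± 0.047), a heme-binding repressor, was the only other to rise, none fell, and the median of the list was 0.04. Of 30 transcription factors of smooth muscle and mesenchymal identity, only Mef2c rose, by 0.28, and it did not pass without PBS replicate 1, Ang II replicate 1 or Ang II replicate 2.

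Promoter windows of RefSeq genes on the GRCr8 build, each from 250 bases before the start to 50 after it, are shown for the 2 genes of the early or calcineurin lists with the largest rise that hold a cAMP response element (CRE, TGACGTCA). Rcan1 has it 207 bases before the start and Ier2, an early nuclear protein that rose by 0.55, 66 bases before it. The windows are chr11:45118187-45118486 on the minus strand for Rcan1 and chr19:40399123-40399422 on the plus strand for Ier2, and capitals mark the CRE.
Rcan1: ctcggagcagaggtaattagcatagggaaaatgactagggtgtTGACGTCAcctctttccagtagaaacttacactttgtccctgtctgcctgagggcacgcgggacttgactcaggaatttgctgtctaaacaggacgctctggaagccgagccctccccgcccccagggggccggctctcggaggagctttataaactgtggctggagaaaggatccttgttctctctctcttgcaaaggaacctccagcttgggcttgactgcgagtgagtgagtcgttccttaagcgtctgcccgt
Ier2: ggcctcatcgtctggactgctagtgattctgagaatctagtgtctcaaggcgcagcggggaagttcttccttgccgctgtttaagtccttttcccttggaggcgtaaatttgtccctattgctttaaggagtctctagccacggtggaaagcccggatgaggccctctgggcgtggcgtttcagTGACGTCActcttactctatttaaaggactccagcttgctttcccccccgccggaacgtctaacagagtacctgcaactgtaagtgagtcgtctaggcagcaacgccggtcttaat
Windows were found for 371 of the 451 risen genes, 201 of the 247 fallen genes and 9457 of the 11373 tested. The CRE, searched on both strands, lay in 4.31% of the windows of risen genes, 0.498% of those of fallen genes, 3.25% of those of all tested genes and 1.91% of all 27457 windows in the table. The AP-1 letters TGANTCA lay in 9.16%, 4.48%, 4.95% and 7.33% of the same 4 sets, and in 16.0% of windows of the genes that rose at least 1.5-fold. For the NF-kB box the shares were 11.1%, 7.96%, 5.11% and 4.16%. Neither the CRE nor the AP-1 letters contain the other. A match shows only that the letters are present in the window. Windows were found for 15 of the 22 risen early factors, under 80% of them, so shares within that list are void.

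Many of the genes that interferons induce rose. Interferons are antiviral cytokines, and many of their effector genes carry an interferon-stimulated response element (ISRE). Of 42 antiviral effector genes tested, 33 rose and none fell, with a median of 0.44 and a range from 0.05 to 1.77. Mx1, a dynamin-like GTPase that traps viral nucleocapsids, had 9.32 and 9.31 in PBS and 11.11 and 11.06 with Ang II, a rise of 1.77 ± 0.050 (3.41-fold, adjusted p = 1.33e-05). Zbp1, a sensor of left-handed nucleic acids, went from 7.25 and 7.27 to 8.69 and 8.60, and Ifit3, which binds viral RNA complexes, from 10.02 and 10.10 to 11.41 and 11.35. All 3 genes were high in both Ang II arrays and did not overlap with PBS, as was the case for every risen gene.

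Other effectors had smaller rises. Oasl, a relative of the oligoadenylate synthetases, rose by 1.04 ± 0.054, Rsad2, an antiviral radical enzyme, by 0.87, and the ubiquitin-like Isg15 by 0.86 ± 0.055, from 12.32 and 12.41 to 13.17 and 13.28. Usp18, which removes Isg15 from proteins and dampens the receptor, rose by 0.66 ± 0.044. The tether Bst2 and Ifit1 both rose by 0.80. The count of risen effectors stayed between 27 and 30 of 42 when any 1 siNTC array was left out.

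Of 37 interferon sensors and signalling factors, 13 rose and none fell, with a median of 0.21. Irf7, the main factor that amplifies type I interferon, went from 12.23 and 12.20 to 12.91 and 12.98 (0.73 ± 0.045). Batf2 rose by 0.76, the RNA sensors Ifih1 and Dhx58 by 0.61 and 0.51, Stat2 by 0.48 ± 0.046 and Irf1 by 0.40 ± 0.047. Irf9 had 0.18 ± 0.077 and did not pass. Ifnb1, the interferon beta gene itself, stood low at 4.89 and 4.90 in PBS and at 5.38 and 5.20 with Ang II, a difference of 0.40 ± 0.10 that did not pass (adjusted p = 0.0645). The list held 7, 8, 7 and 8 risen genes without PBS replicate 1, PBS replicate 2, Ang II replicate 1 and Ang II replicate 2.

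Genes of antigen processing and the guanylate binding proteins rose in 17 of 23 cases and fell in none, with a median of 0.41. Gbp4, a GTPase of cell-autonomous defence, went from 9.37 and 9.45 to 10.38 and 10.31 (0.93 ± 0.071) and Gbp2 rose by 0.76 ± 0.045. The 3 catalytic subunits of the immunoproteasome rose by similar amounts, Psmb10 by 0.65 ± 0.073, Psmb9 by 0.64 ± 0.043 and Psmb8 by 0.60 ± 0.058. The peptide transporter gene Tap1 rose by 0.54 ± 0.055 and Tap2 by 0.41. B2m, the light chain of class I molecules, was near the top of the scale (14.18 to 14.35) with 0.16 ± 0.041 and did not pass. Its other probe set had 0.40 (adjusted p = 0.00660 among all probe sets), so the probe sets of B2m disagree.

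All 4 interferon-induced chemokines rose. Cxcl11, a ligand of CXCR3, had 7.74 and 7.92 in PBS and 9.43 and 9.48 with Ang II, a rise of 1.62 ± 0.071 (3.08-fold, adjusted p = 5.8e-05). Cxcl9, a ligand of the same receptor, went from 5.73 and 5.62 to 7.01 and 6.97, and Ccl5 from 9.70 and 9.77 to 10.89 and 10.96. Cxcl10 rose by 0.90 ± 0.044 on a high level, from 11.16 and 11.20. All 4 were called with any 1 array left out. The macrophage pore protein gene Mpeg1 (1.04 ± 0.089) and the inflammatory caspase gene Casp1 (0.95 ± 0.17) also rose, on low levels of 5.09 to 6.37, and the Casp1 call was lost without any 1 siNTC array. None of the 7 leukocyte markers above the filter was called, and the summed level of all 15 was 9.59 and 9.63 in PBS and 9.77 and 9.69 with Ang II. Their part in these rises was not tested.

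Windows of the 2 antiviral effectors with the largest rise that hold the ISRE core (GAAANNGAA on either strand) are shown for the same reason, with the core in capitals. Ifit3 (chr1:241527076-241527375, plus strand) has it at 43 and 24 bases before the start, and Cmpk2, a mitochondrial nucleotide kinase that rose by 0.94 ± 0.042 (chr6:48802600-48802899, plus strand), at 91 bases before it. In both windows the core reads on the opposite strand.
Ifit3: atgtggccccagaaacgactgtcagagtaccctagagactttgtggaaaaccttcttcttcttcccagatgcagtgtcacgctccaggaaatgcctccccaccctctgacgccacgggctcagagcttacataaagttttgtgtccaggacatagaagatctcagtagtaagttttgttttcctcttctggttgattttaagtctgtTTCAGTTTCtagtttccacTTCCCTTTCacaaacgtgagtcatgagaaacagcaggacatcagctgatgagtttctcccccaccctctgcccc
Cmpk2: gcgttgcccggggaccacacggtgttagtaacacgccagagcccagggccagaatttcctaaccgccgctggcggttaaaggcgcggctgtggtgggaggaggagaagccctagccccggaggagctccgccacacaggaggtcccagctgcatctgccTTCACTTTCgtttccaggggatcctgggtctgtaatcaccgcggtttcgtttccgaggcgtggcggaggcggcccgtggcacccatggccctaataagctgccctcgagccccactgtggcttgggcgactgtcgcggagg
The ISRE core lay in 17.8% of the windows of risen genes (66 of 371), in 30.7% of those that rose at least 1.5-fold (23 of 75) and in 5.47% of those of fallen genes (11 of 201). The share was 6.99% over the genes tested and 9.50% over all windows. Among the risen genes of antigen processing and the guanylate binding proteins it was 80.0% (12 of 15 windows found). For the antiviral effectors, windows were found for 25 of 33 risen genes, under 80% of them, so shares within that list are void.

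A control probe set for 5S ribosomal RNA was, like these interferon genes, higher in siNTC Ang II than in siNTC PBS arrays. It stood at 8.15 and 8.24 in siNTC PBS arrays and at 8.88 and 8.93 in siNTC Ang II arrays, a difference of 0.709, against 7.64 and 7.62 and then 7.71 and 7.77 in siGiver arrays, a difference of 0.113. The arms also differed without Ang II, where the mean of this control was 8.20 in siNTC and 7.63 in siGiver cells, against 9.32 and 9.27 for Mx1. The difference between the 3′ and 5′ probe sets of the actin control, a sign of RNA integrity, lay between 0.231 and 0.300 in all 8 arrays. The same difference for the Gapdh control was -0.122 and -0.155 in the siNTC Ang II arrays and between -0.0998 and -0.0552 in the other arrays. The part of the 5S signal and of the Gapdh difference in the interferon result was not tested. The mean of the poly-A spike-in controls was 8.15 and 8.22 in siNTC PBS and 8.27 and 8.26 in siNTC Ang II arrays. It was 8.61 and 8.61 in siGiver PBS and 8.14 and 7.93 in siGiver Ang II arrays. The hybridisation spike-in mean was 10.41 and 10.48, 10.46 and 10.49, 10.72 and 10.53, and 10.44 and 10.34 in the same order. The part of these controls in the differences between the arms was not tested.

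**Figure D3:**
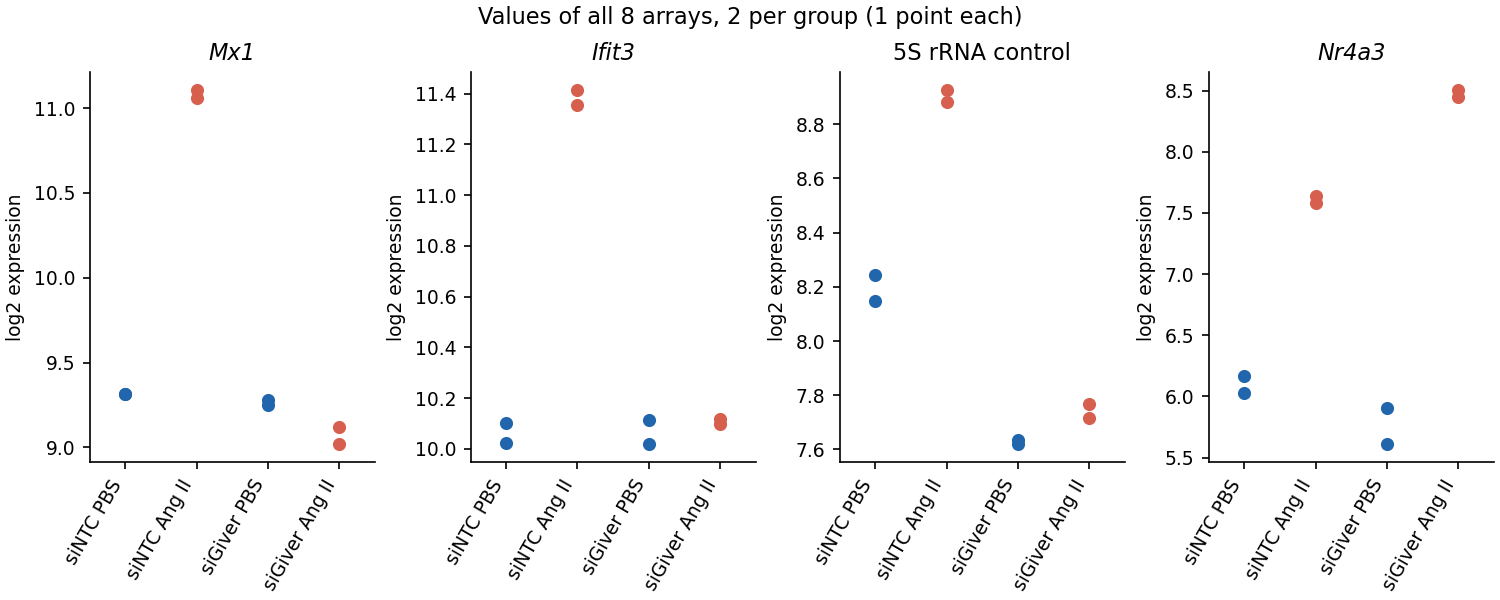
Log2 expression (vertical axis) of Mx1, Ifit3, the 5S ribosomal RNA control probe set and Nr4a3 in all 8 arrays, 2 per group (horizontal axis). Mx1, Ifit3 and the 5S control are highest in the siNTC Ang II arrays, and Nr4a3 is highest in the siGiver Ang II arrays.

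Inflammatory chemokines and receptors rose in 11 of 19 cases and fell in 1, with a median of 0.31. Ccrl2, which presents chemerin, went from 6.48 and 6.63 to 7.50 and 7.32 (0.86 ± 0.093), and the neutrophil chemokine Cxcl2 from 6.38 and 6.47 to 7.20 and 7.24 (0.79 ± 0.091). Ccl20 and the monocyte chemokine Ccl7 rose by 0.55 ± 0.057 and 0.50 ± 0.046. Ccl2, the main monocyte chemokine, stood at 13.36 and 13.38 and then at 13.68 and 13.63 (0.28 ± 0.045), and its call was lost without any 1 siNTC array. Ackr3, which scavenges Cxcl11 and Cxcl12, fell by 0.29 on the log2 scale. The list held 4, 7, 5 and 4 risen genes without PBS replicate 1, PBS replicate 2, Ang II replicate 1 and Ang II replicate 2, and the Ackr3 call was lost in each case.

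Of 29 cytokines and receptors 5 rose and none fell. Il6 had 8.53 and 8.59 in PBS and 9.21 and 9.17 with Ang II, a rise of 0.63 ± 0.045 (1.55-fold, adjusted p = 0.000325) that held under every alternative. Tslp, an epithelial and stromal alarmin, rose by 0.38 ± 0.052, and the receptors Tnfrsf12a and Tnfrsf11b by 0.42 and 0.41. Tnf overlapped between the groups, at 6.10 and 6.01 in PBS and 5.87 and 6.07 with Ang II (-0.08 ± 0.079). The other Tnf probe set, which is dimmer, had 0.56 (adjusted p = 0.000939 with all probe sets tested), so the 2 probe sets disagree.

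Of 28 NF-kB factors, brakes and adhesion molecules, 9 rose and none fell, with a median of 0.18. Tnfaip6, a hyaluronan-binding protein, went from 11.24 and 11.34 to 11.80 and 11.82 (0.52 ± 0.060). Sod2, the mitochondrial superoxide dismutase, rose by 0.39 ± 0.047, the adhesion molecule Icam1 by 0.28 ± 0.044 and the inhibitor Nfkbia by 0.23 ± 0.043. Vcam1 had 0.14 ± 0.043 and did not pass. Without PBS replicate 1, PBS replicate 2, Ang II replicate 1 or Ang II replicate 2, the list held 3, 6, 3 and 2 risen genes.

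In prostaglandin synthesis, the inducible enzyme Ptgs2 (COX-2) had 11.66 and 11.65 in PBS and 12.45 and 12.23 with Ang II, a rise of 0.69 ± 0.088. The constitutive enzyme Ptgs1 rose by 0.25 ± 0.059, near the threshold (adjusted p = 0.0493), and was lost without any 1 siNTC array. Its call was also lost when its probe sets were averaged, and its other probe set had -0.03 and did not pass. Pla2r1, a receptor for secreted phospholipase A2, fell from 8.46 and 8.49 to 7.89 and 7.88 (-0.59 ± 0.043). The other 19 of 22 genes on the list did not pass.

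**Figure D4:**
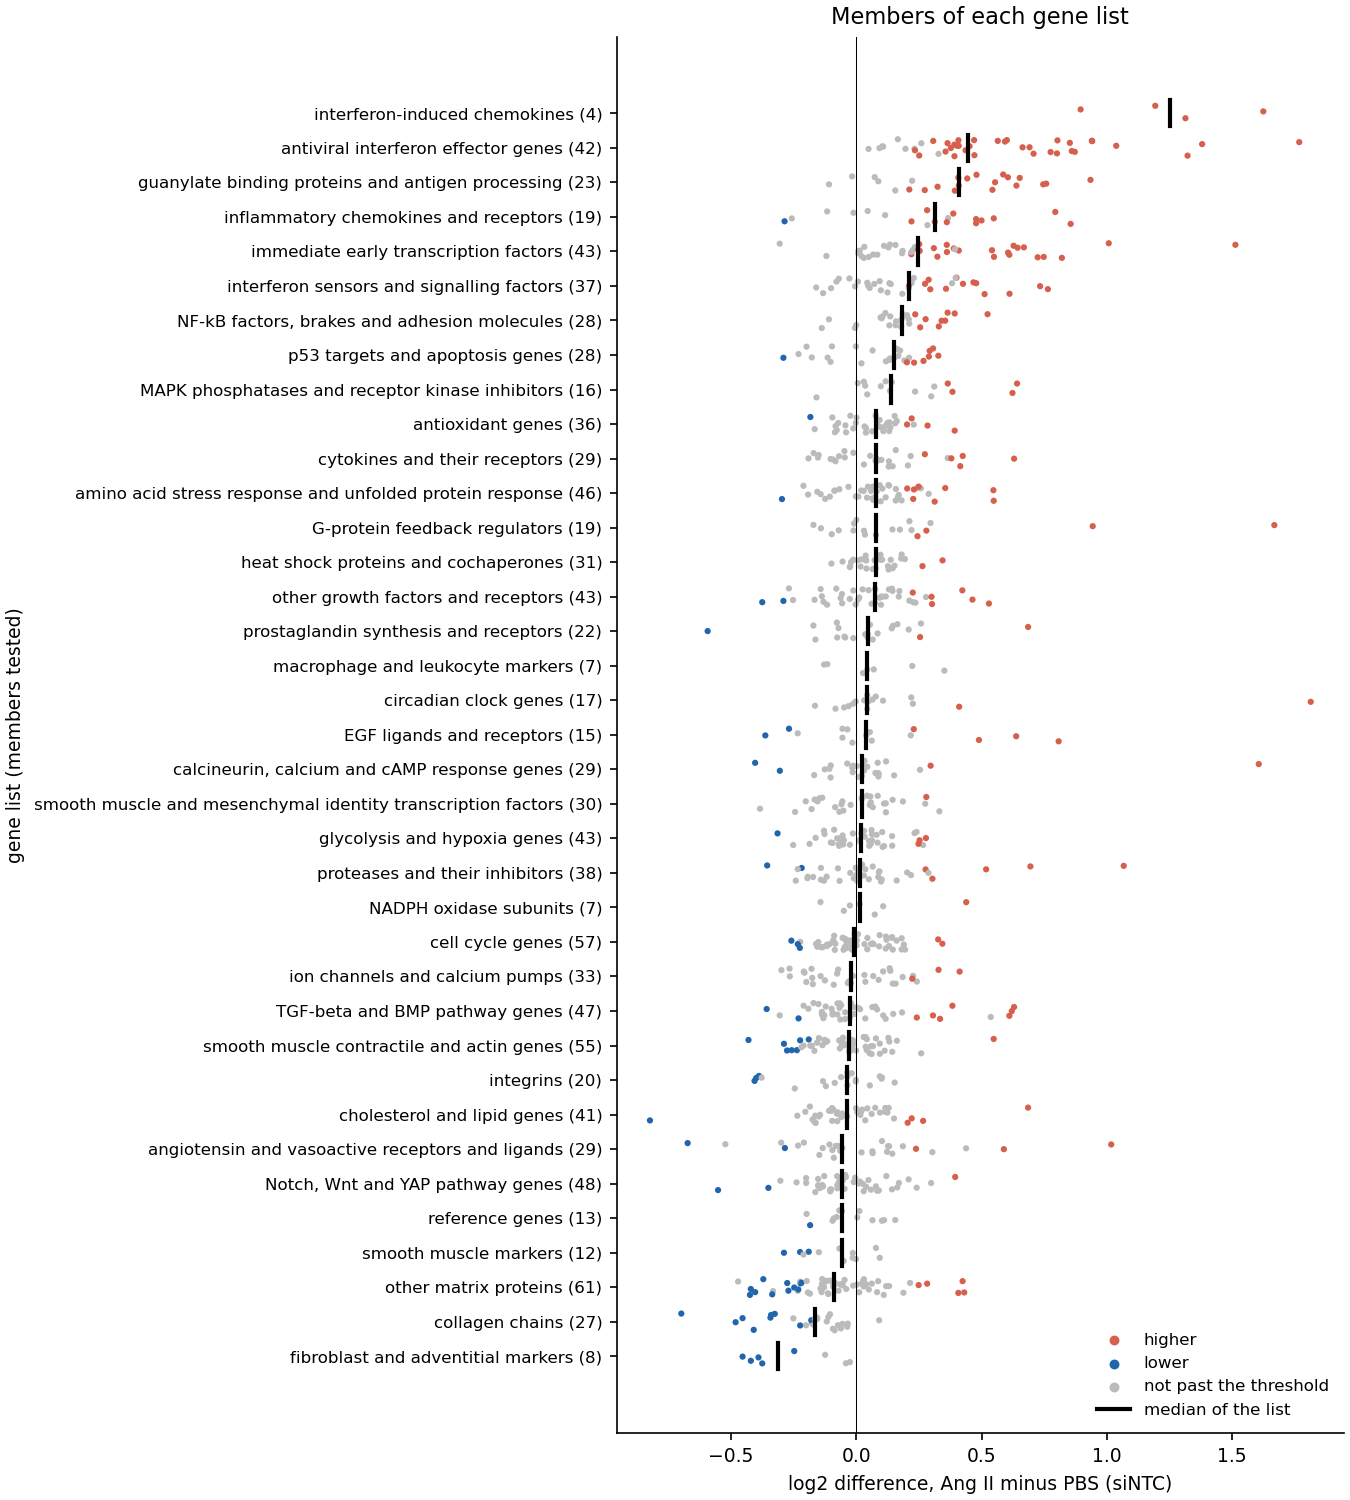
Difference between Ang II and PBS in siNTC cells (horizontal axis, log2) for each member of 37 gene lists (vertical axis, with the number tested), with risen members in red, fallen ones in blue and the median as a black bar. The medians of the interferon lists and of the early factors lie to the right of 0, and those of collagens (median -0.17) and fibroblast markers (median -0.31) to the left. The lists were chosen with earlier results of these data known.

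Some ligands of the EGF receptor rose. Of 15 genes tested 4 rose and 2 fell. Areg went from 4.93 and 4.76 to 5.75 and 5.55 (0.81 ± 0.12), Ereg from 6.62 and 6.64 to 7.22 and 7.32 (0.64 ± 0.068), and Hbegf, the ligand shed after Ang II, from 7.69 and 7.82 to 8.24 and 8.25 (0.49 ± 0.057). Btc rose by 0.23. Egfr fell from 8.93 and 8.92 to 8.66 and 8.65 (-0.27 ± 0.047), a call lost without any 1 of the 4 siNTC arrays, and its other probe set had -0.25 (adjusted p = 0.153 among all probe sets). The ligand Nrg1 fell by 0.36 on the log2 scale, while its other probe sets lay between -0.38 and -0.03 and none of them passed. No group overlapped for the called genes of this list, as for every called gene. The list held 3, 2, 2 and 3 risen genes and 1 fallen gene each without PBS replicate 1, PBS replicate 2, Ang II replicate 1 and Ang II replicate 2.

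Among 43 other growth factors and receptors 6 rose and 2 fell, against 3.97% and 2.17% of all genes. Nppb, the B-type natriuretic peptide, rose by 0.53 ± 0.066, Bdnf by 0.46 ± 0.050 and the stress cytokine Gdf15 by 0.42 ± 0.067. The other Bdnf probe set had 0.13 and did not pass. Both receptors of platelet-derived growth factor fell, Pdgfra from 7.54 and 7.46 to 7.10 and 7.15 and Pdgfrb from 9.31 and 9.40 to 9.05 and 9.08, while the ligand Pdgfa rose by 0.23. The Pdgfrb call was lost without any 1 siNTC array and when its probe sets were averaged, and its other probe sets, at -0.05 and -0.17, did not pass. Leaving out the same arrays in that order gave 3, 4, 3 and 2 risen genes and 1 fallen gene each.

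Of 47 genes of the TGF-beta and BMP pathways, 7 rose and 2 fell. Among the risen were 3 extracellular or membrane antagonists, the activin binder Fst (9.22 and 9.36 to 9.93 and 9.91, 0.63 ± 0.058), the decoy receptor Bambi (0.62 ± 0.068) and the BMP antagonist Grem1 (0.38 ± 0.047). The ligands Tgfb3 and Inhba rose by 0.33 ± 0.042 and 0.31 ± 0.051, and Bmp4 fell by 0.36 on the log2 scale. Bmp2 had 0.54 ± 0.13 and did not pass (adjusted p = 0.0506). The count was 5 risen genes without any 1 siNTC array, and 1, 0, 1 and 1 fallen genes without PBS replicate 1, PBS replicate 2, Ang II replicate 1 and Ang II replicate 2. Of 48 Notch, Wnt and YAP genes, the Wnt antagonist Nkd2 rose by 0.39, Tcf7 fell from 6.22 and 6.19 to 5.64 and 5.67, and the Notch ligand Jag1 fell by 0.35 on the log2 scale. Over all genes tested 3.97% rose and 2.17% fell. The Nkd2 call was lost without any 1 siNTC array. The Tcf7 call was lost without PBS replicate 1.

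Nox1, the inducible catalytic subunit of NADPH oxidase in these cells, went from 8.50 and 8.48 to 8.97 and 8.88 (0.44 ± 0.056, adjusted p = 0.00517). Its homolog Nox4 overlapped between groups, with 0.01 ± 0.066, and none of the other 6 subunits tested passed. Of 36 antioxidant genes 4 rose and 1 fell, against 3.97% and 2.17% of all genes. Sod2 alone remained risen without any 1 siNTC array. Of 46 genes of the amino acid and unfolded protein responses, 8 rose and 1 fell. The pseudokinase gene Trib2 rose by 0.55 ± 0.069 and Ddit3 (CHOP) by 0.55 ± 0.042, from 9.60 and 9.63 to 10.16 and 10.15, while the chaperone Hspa5 (0.12 ± 0.050) did not pass. This count was 2, 4, 2 and 3 without PBS replicate 1, PBS replicate 2, Ang II replicate 1 and Ang II replicate 2.

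Genes of the matrix and its receptors were among those that fell. Collagen chains fell in 9 of 27 cases and rose in none, with a median of -0.17. Col14a1, which decorates collagen fibrils, went from 10.17 and 10.12 to 9.71 and 9.67 (-0.45 ± 0.044, 1.37-fold lower, adjusted p = 0.00165) and held under every alternative. Col12a1, another fibril-associated chain, went from 8.01 and 7.93 to 7.58 and 7.54, and Col11a1 from 10.73 and 10.71 to 10.25 and 10.22. The Col12a1 call was lost when its probe sets were averaged, its other probe set having -0.02, and the Col11a1 call was lost without any 1 siNTC array. Other probe sets of Col11a1 had -0.87 (adjusted p = 0.00599 among all probe sets) and -0.43, of which only the first passed. The groups did not overlap for Col14a1, Col12a1 and Col11a1, as for every called gene. Col6a3 had the largest fall of the list, 0.70 ± 0.12 on the log2 scale, at the low level of 5.90 and 5.99 against 5.10 and 5.39. Its adjusted p was 0.0867, 0.0910 and 0.0762 without PBS replicate 1, PBS replicate 2 and Ang II replicate 1. The main fibrillar chains Col1a1 (-0.16 ± 0.042), Col3a1 (-0.12 ± 0.043) and Col1a2 (-0.06 ± 0.041) did not pass. The list held 2, 4, 4 and 3 fallen genes without PBS replicate 1, PBS replicate 2, Ang II replicate 1 and Ang II replicate 2.

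Of 61 other matrix proteins, 11 fell and 5 rose, with a median of -0.09. The basement membrane proteoglycan gene Hspg2 went from 9.85 and 9.88 to 9.45 and 9.54 (-0.37 ± 0.050), and Matn2 and Dcn fell by 0.42 each on the log2 scale. Of the elastic fibre genes, Fbn1 had -0.28 ± 0.048 and Eln -0.27 ± 0.061 (adjusted p = 0.0439), and both fell. The Eln call was lost without PBS replicate 2, Ang II replicate 1 or Ang II replicate 2, and the Fbn1 call without PBS replicate 1, PBS replicate 2 or Ang II replicate 2. Their other probe sets had -0.76 for Eln and -0.37 for Fbn1, and both passed among all probe sets. In the other direction, Acan rose by 0.43 ± 0.058, the lysyl oxidase relative Loxl3 by 0.42 ± 0.050 and the matricellular gene Ccn1 by 0.41 ± 0.070. Leaving out PBS replicate 1, PBS replicate 2, Ang II replicate 1 or Ang II replicate 2 gave 5, 4, 5 and 4 fallen genes and 1, 2, 2 and 2 risen genes. Of 20 integrins, Itga11 and Itga1, both collagen receptors, and Itga8 fell by 0.41, 0.40 and 0.39 on the log2 scale, and none rose. The integrin count was 2, 3, 3 and 2 with the same arrays left out.

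Fibroblast and adventitial markers, several of which are matrix genes, fell in 5 of 8 cases, with a median of -0.31. These were Col14a1, Dcn, Scara5, Pdgfra and Lum, and the summed level of all 8 was 12.9 and 12.8 in PBS and 12.6 and 12.6 with Ang II. In bulk RNA, fewer cells of a type and less RNA per cell cannot be told apart. The count was 3, 3, 3 and 4 without PBS replicate 1, PBS replicate 2, Ang II replicate 1 and Ang II replicate 2. The part of these markers in the falls of matrix genes was not tested.

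Most contractile and actin genes did not pass. Of 55 tested, 7 fell, against 2.17% of all genes, and 1 rose, with a median of -0.03. Smooth muscle markers fell in 3 of 12 cases (median -0.06), and their summed level was 15.6 and 15.6 in PBS and 15.5 and 15.5 with Ang II. Their part in the falls of contractile genes was not tested. Myh10, a nonmuscle myosin heavy chain, went from 11.43 and 11.41 to 10.99 and 11.00 (-0.43 ± 0.044), and was the only fall of this list that held under every alternative. The smooth muscle myosin gene Myh11 fell by 0.29 ± 0.044 on the log2 scale and Cald1 by 0.22 ± 0.049. The other probe set had -0.16 for Myh11 and -0.25 for Cald1, and neither passed. Both calls were lost when probe sets were averaged. Acta2 stood at 11.70 and 11.70 in PBS and at 11.54 and 11.48 with Ang II (-0.19 ± 0.044, adjusted p = 0.0467). The Acta2 and Cald1 calls were lost without any 1 of the 8 arrays, and the Myh11 call without PBS replicate 1, Ang II replicate 1 or Ang II replicate 2. Tagln had -0.01 ± 0.043. The fallen genes numbered 1, 2, 1 and 1 without PBS replicate 1, PBS replicate 2, Ang II replicate 1 and Ang II replicate 2. The GTPase gene Rnd1, which loosens stress fibres, rose by 0.55 ± 0.071, a call lost without PBS replicate 1.

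Proteolysis at the cell surface was represented by rises of Serpinb2 and Plaur. Serpinb2, an inhibitor of plasminogen activators, had 6.06 and 6.02 in PBS and 7.26 and 6.96 with Ang II (1.07 ± 0.096, 2.10-fold). Plaur, the urokinase receptor, went from 8.66 and 8.81 to 9.39 and 9.48 (0.69 ± 0.062), and the matrix protease gene Adamts1 rose by 0.52 ± 0.064. Mmp2 fell by 0.22 ± 0.047 on the log2 scale. Of 38 proteases and inhibitors 5 rose and 2 fell, with 3, 5, 3 and 3 risen genes and 0, 1, 0 and 0 fallen ones without PBS replicate 1, PBS replicate 2, Ang II replicate 1 and Ang II replicate 2.

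The remaining lists held few or small changes. Over all genes tested 3.97% rose and 2.17% fell, and counts near these shares do not set a list apart. Of 57 cell cycle genes 2 rose (Cdkn2b by 0.34 and Cdt1 by 0.33) and 3 fell, and of 43 glycolysis and hypoxia genes 3 rose and 1 fell. No cell cycle fall and no glycolysis rise passed without any 1 siNTC array. Of 41 cholesterol and lipid genes 4 rose and 1 fell, and the scavenger receptor gene Olr1 had the largest rise, from 6.48 and 6.74 to 7.31 and 7.27 (0.69 ± 0.096). The lipid rises numbered 1, 2, 0 and 1 without PBS replicate 1, PBS replicate 2, Ang II replicate 1 and Ang II replicate 2. Of 31 heat shock genes 2 rose, and of 28 p53 and apoptosis genes 7 rose, led by Gadd45g at 0.33, and 1 fell. The 7 came to 1, 1, 0 and 0 and the 2 heat shock rises to 0, 1, 0 and 0 with the same arrays left out. Of 13 reference genes, only Gusb passed (-0.18), and it did not without any 1 siNTC array.

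Among the largest changes outside the lists, Tcim, a small regulator of Wnt signalling, went from 7.87 and 8.01 to 9.37 and 9.17 (1.32 ± 0.079, 2.51-fold). Fam110c went from 5.13 and 5.43 to 6.32 and 6.49 (1.12 ± 0.10), and Lmcd1, a LIM protein of the calcineurin path, from 9.07 and 9.22 to 10.24 and 10.22 (1.09 ± 0.062). The magnesium transport gene Cnnm2 rose by 0.98 ± 0.066. None of them overlapped between the groups, which was a condition for naming them and held for every called gene. Actr3b rose by 0.96 ± 0.19, but its PBS arrays stood at 4.19 and 4.78, below the filter value, and the call was lost without PBS replicate 1, Ang II replicate 1 or Ang II replicate 2.

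On the other side, Abca8a, a lipid transporter, fell from 5.28 and 5.24 to 4.42 and 4.45, which is below the filter value (-0.82 ± 0.10). The kinase anchor Akap5 went from 5.46 and 5.46 to 4.86 and 4.92 and was lost without any 1 siNTC array. Rapgef5, an activator of Rap, went from 6.69 and 6.60 to 6.13 and 6.02, and the glutamate receptor gene Gria3 from 7.29 and 7.46 to 6.88 and 6.90. Mme (neprilysin), a protease that cleaves vasoactive peptides, went from 6.17 and 6.01 to 5.35 and 5.69 (-0.57 ± 0.11), and was lost without PBS replicate 1, PBS replicate 2 or Ang II replicate 1.

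For risen genes, 150 dimmer probe sets of 116 genes were measured above the filter. Of these 135 had the same sign (90.0%), 50 were called higher and none was called lower. For fallen genes, 165 of 203 dimmer probe sets of 121 genes had the same sign (81.3%), 24 were called lower and none was called higher.

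The response was compared with that of siGiver cells through the interaction, the Ang II effect in siGiver minus that in siNTC cells, tested in the same fit. It passed for 707 genes, or 6.22% of those tested, with 381 higher (3.35%) and 326 lower (2.87%). The interaction count lay between 356 and 436 with any 1 of the 8 arrays left out. The arms share no arrays. In siGiver cells 1037 genes rose (9.12%) and 818 fell (7.19%). Of the 451 genes risen in siNTC cells, 197 also rose in siGiver cells, which is 43.7% of the first list and 19.0% of the second, and 28 fell there. The siNTC effect was larger for 155 of the 451 and smaller for 94, and 202 did not pass the interaction. Of the 247 fallen genes, 68 also fell in siGiver cells (27.5% of the first list and 8.31% of the second) and 6 rose. For 43 of the 247 the interaction was positive, for 4 it was negative and for 200 it did not pass. The interaction contains the siNTC arrays that selected these genes, which tilts it against the siNTC direction. The splits here, and those of risen or fallen list members below, are therefore partly set by that selection.

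The interferon lists had the larger effect in siNTC cells. Of the 33 antiviral effectors that rose, 29 had a lower effect in siGiver cells, as did 14 of 17 risen guanylate binding and antigen genes and all 4 chemokines. The median difference over the 42 effectors was 0.44 in siNTC and -0.05 in siGiver cells. Mx1 rose by 1.77 in siNTC and had -0.19 ± 0.050 in siGiver cells, an interaction of -1.96 ± 0.070 (adjusted p = 8.1e-05). For Cxcl11 the siGiver difference was -0.10 ± 0.071 and the interaction -1.72 ± 0.10 (adjusted p = 0.00035). Ifih1 did not pass the interaction (-0.20 ± 0.083), with a rise of 0.41 in siGiver cells. The 5S control differed by 0.709 in siNTC and 0.113 in siGiver cells, and its part in this difference was not tested.

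Early factors and signal brakes had the smaller effect in siNTC cells. Of the 22 risen early factors all rose in siGiver cells, and the effect was larger there for 16. Nr4a1 rose by 1.01 in siNTC and by 2.51 ± 0.10 in siGiver cells (interaction 1.50 ± 0.15, adjusted p = 0.0018), and Egr2 by 0.82 and 2.30 ± 0.059. All 4 risen MAP kinase brakes were larger in siGiver cells, Dusp6 by 1.39 ± 0.071. Rgs16 rose by 3.17 ± 0.12 there and Hbegf by 1.77 ± 0.057, both past the interaction threshold. Collagens also differed. Of the 9 fallen chains, 6 had a positive interaction, with Col12a1 at -0.41 in siNTC and 0.32 ± 0.046 in siGiver cells, and the medians over 27 chains were -0.17 and 0.02.

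For other genes the interaction did not pass, which does not show the effects to be equal. Agtr1a differed by -0.67 in siNTC and -0.53 ± 0.046 in siGiver cells (interaction 0.14 ± 0.064), S1pr1 by 1.02 and 0.99 (-0.03 ± 0.10), Il6 by 0.63 and 0.69 (0.07 ± 0.064) and Nox1 by 0.44 and 0.44 (0.00 ± 0.079). Ereg and Areg had interactions of 0.12 ± 0.096 and 0.09 ± 0.17. S1pr3 was different, at -0.29 in siNTC and 0.54 ± 0.048 in siGiver cells (interaction 0.82 ± 0.069, adjusted p = 0.00083), as was Egfr at -0.27 and 0.37 (0.64 ± 0.066).

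**Figure D5:**
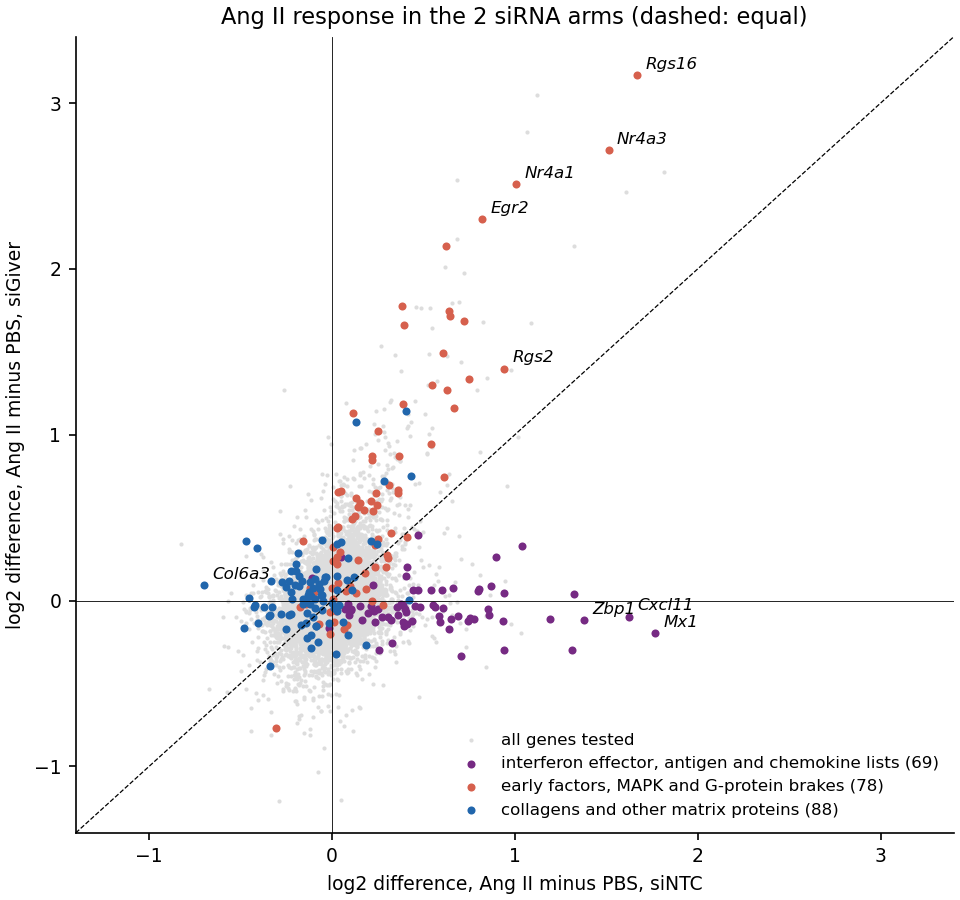
Ang II minus PBS in siGiver cells (vertical axis, log2) against the same in siNTC cells (horizontal axis, log2), 1 point per gene, with the dashed line marking equal effects. Most interferon genes (purple) lie near the horizontal axis, Mx1 at 1.77 and -0.19, most of the risen early factors and brakes (red) lie above the line, Rgs16 at 1.67 and 3.17, and matrix genes (blue) lie around 0.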

How the data were processed

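RNA from 8 rat aortic smooth muscle cell samples was measured on Affymetrix arrays, with 5 ug of total RNA labelled per array, per the labels' protocols. The authors deposited log2 values, 1 per probe set and array, and RMA and Partek are named in the submitters' processing notes. No version of either is named in these sources. The RMA method subtracts background, makes the distributions of the arrays equal and then summarises each probe set, so a shift of all genes at once would be hidden. Arrays have no read depth, and their number limits the precision.

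Of 31099 probe sets, 20832 carry 1 symbol in the platform annotation, 436 carry several and are not named here, 9774 carry none and 57 are controls. Symbols were updated by gene identifier for 20764. Those whose mean lay under 4.81 log2, the 30th percentile, were left out and the brightest per symbol was kept. Limma 3.58.1 in R 4.3.3 fitted 1 mean per group to all 8 arrays (4 residual and 3.53 prior degrees of freedom), and adjusted p under 0.05 counted as called. The fit was tested on simulated data for 11373 genes. For Ang II against PBS in siNTC cells the share recovered was 58% at 1.25-fold, 86% at 1.5-fold and 100% at 2-fold and 3-fold, with 5 false among 177 calls. The simulated arrays were independent draws with no effect shared by the genes of an array or by a culture. Whether the real arrays meet this is not known, so these figures hold for the simulated setting only.

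Samples were grouped by their titles. Genes named are the 25 largest rises and 15 largest falls that did not overlap between groups, skipping clone and locus names, members of 38 gene lists, and Acta2, Agtr1a, Ccl2, Egr1, Fos, Il6, Nox1, Nr4a3 and Tnf. These members and lists were chosen with earlier results of these data known. Summed levels of markers are log2 of their linear sum. Alternatives were other filters, other handling of several probe sets, loess, median subtraction, trended moderation, a replicate block, the siNTC arrays alone, and each array left out. No scan date or slide was used.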

Additional observations from a re-analysis of the deposited data

Results flagged for a closer look

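The Ang II effect differed between the siRNA arms by the interaction test in limma for 30 of the largest or always named changes. Values are the effect in siGiver minus that in siNTC cells, log2. The largest changes were chosen on siNTC arrays that also enter the interaction, which tilts it against the siNTC direction. Higher in siGiver cells were Fam110c (1.93), Serpinb2 (1.76), Rgs16 (1.50), Nr4a1 (1.50), Nr4a3 (1.20), Egr1 (0.96), Rcan1 (0.86), Tcim (0.81), Nfil3 (0.77), Fos (0.64), Lmcd1 (0.59), Rgs2 (0.46) and Cnnm2 (0.41), all of which rose in siNTC cells. In siGiver cells the mean PBS levels of Fam110c and Abca8a and the mean Ang II level of Cxcl9 lay below the filter value. So did the mean Ang II levels of Abca8a and Myo1f in siNTC cells. Of genes that fell in siNTC cells, Abca8a (1.16), Col6a3 (0.79), Tcf7 (0.60), Pla2r1 (0.50), Myo1f (0.48) and Gria3 (0.43) had a positive difference. Lower in siGiver cells were Mx1 (-1.96), Cxcl11 (-1.72), Cxcl9 (-1.61), Zbp1 (-1.50), Ccl5 (-1.31), Ifit3 (-1.28), Ifi27l2b (-1.24), Mpeg1 (-1.23), Ly6e (-1.12), Cmpk2 (-0.90) and Oasl (-0.71).

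Over all genes tested the interaction passed for 6.22%, and lists near that share, such as the cell cycle and reference genes, do not stand out from it. By list, the number of members whose effect differed was 30 of 42 antiviral effectors, 14 of 23 guanylate binding and antigen genes, 11 of 37 interferon sensors and 4 of 4 interferon-induced chemokines. It was 21 of 43 early factors, 9 of 16 MAP kinase brakes, 3 of 19 G-protein regulators, 4 of 29 calcineurin and cAMP genes, 4 of 29 vasoactive receptors and ligands and 3 of 33 ion channels. In inflammation it was 5 of 19 chemokines, 7 of 29 cytokines, 9 of 28 NF-kB genes and 3 of 22 prostaglandin genes. In growth and differentiation it was 3 of 15 EGF genes, 7 of 43 other growth factors, 12 of 47 TGF-beta and BMP genes, 7 of 48 Notch, Wnt and YAP genes, 6 of 30 identity factors, 4 of 17 clock genes and 4 of 57 cell cycle genes. In structure it was 7 of 27 collagens, 14 of 61 other matrix proteins, 7 of 20 integrins, 12 of 55 contractile genes and 4 of 38 proteases. In stress and metabolism it was 7 of 36 antioxidant genes, 10 of 46 stress response genes, 1 of 31 heat shock genes, 6 of 28 p53 genes, 4 of 43 glycolysis genes and 5 of 41 lipid genes. It was 2 of 8 fibroblast markers, 2 of 7 leukocyte markers and 1 of 13 reference genes.

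The 5S ribosomal RNA control, a probe set outside the gene measurements, was higher by 0.709 log2 in Ang II than in PBS arrays of siNTC cells.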

How the results depend on the processing

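With 2 arrays per group, the number of calls depended on the setting more than their direction did. The 698 calls (451 higher, 247 lower) became 420 (300 and 120) without a filter and 1497 (853 and 644) with trended and robust moderation. They became 422 (298 and 124) with only the 4 siNTC arrays in the fit, and 1073, of which 445 were lower, with a filter at the 50th percentile. The interaction count of 707 became 467 without a filter and 1490 with trended moderation. Leaving out 1 array at a time gave 227 to 526 calls (177 to 367 higher, 50 to 170 lower) and 356 to 436 interaction calls, where a lone array is assumed to vary like the other groups. Deviations of same-numbered siNTC arrays from their group means correlated at -0.00185 across the genes tested (-0.0664 in siGiver cells). With 2 arrays per group this shows no pairing by replicate number but cannot exclude a shared culture or batch. The replicate block gave 548 calls (375 higher, 173 lower) and 553 interaction calls. Of 266 called genes that are named or listed, 118 held under every setting, 146 were lost without at least 1 siNTC array and 83 in a setting that leaves out no array. No called gene among those named or listed changed sign. Tnf, not called at -0.08, had 0.24 when its probe sets were averaged (limma adjusted p = 0.0394) and 0.02 without siNTC Ang II replicate 1. Median subtraction and loess put the median gene at 0.0158 and 0.00309 log2, against 0.0059 as deposited. Limits of signal over background were not analysed here, since detection calls are not among the files used.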
